A study of Homo sapiens with 12 samples.

Results

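The response of HepG2C3A cells to acetaminophen in a culture microsystem was described from 6 of the 12 arrays of the series. HepG2C3A is a human line from a liver tumour that keeps many hepatocyte functions, and acetaminophen is a common analgesic and antipyretic. The control group was 3 samples of untreated cells grown in the microsystem for 96 h, and the treated group was 3 samples grown there for the same time and exposed to acetaminophen for 72 h of it. The other 6 arrays were 3 control and 3 treated samples of the same line, with the same times, in Petri dishes. They entered the intensity filter, the choice of probe sets and the fit that estimates the spread of each gene. Their own response is compared at the end. All groups thus share 1 tumour line. Neither the acetaminophen dose nor the build of the microsystem is given in the sources used. Since no label ties replicates to separate cultures, the p-values reflect only the spread of these arrays, part or all of which may be technical. Every probe set with exactly 1 gene symbol was taken, and the brightest probe set stood for a gene with several, which gave 18404 genes. Of these, 13199 exceeded the 40th percentile of all probe sets on at least 3 of the 12 arrays and were tested.

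Hepatocytes clear most acetaminophen by attaching glucuronate or sulfate to it, while cytochrome P450 enzymes oxidise a part to a reactive quinone imine that glutathione traps. Adducts of the quinone imine and oxidative stress can damage mitochondria and DNA, and DNA damage activates p53, which raises genes of cell cycle arrest, repair and death. Genes of DNA replication are transcribed mainly under E2F factors and those of mitosis mainly under MYB and FOXM1 complexes, so both groups follow the number of dividing cells.

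Values are log2 intensities, on which a difference of 1 is a doubling. A gene is said to have risen or fallen when its treated minus control difference passed at an adjusted p under 0.05 in limma. Unless stated otherwise, a gene named as risen or fallen also passed without each of the 6 microsystem arrays in turn. Differences are given with the SE of the fit. The 3 treated and 3 control microsystem arrays did not overlap in 3646 of the 13199 genes tested (27.6%). The largest rises and falls were named only among genes without overlap, so for them it is no added support. Over all genes tested, 6418 differences were above 0, and 3408 genes had an unadjusted p under 0.05 in limma. Array medians lay between 5.563 and 5.629, pairs of arrays of a group correlated with r between 0.991 and 0.994 across probe sets, and no pair held identical values. Of 9 measured hepatocyte and hepatoma markers, all were tested and none passed in limma (1 at an unadjusted p under 0.05), with albumin (ALB) differing by -0.04 and alpha-fetoprotein (AFP) by -0.18. All 7 endothelial markers, 4 of 8 stellate cell and fibroblast markers and 4 of 7 leukocyte markers were under the intensity filter. The log2 of the summed linear intensity of the fibroblast markers ranged from 7.99 to 8.07 in control and from 7.84 to 8.08 in treated arrays, and that of the leukocyte markers from 8.68 to 8.73 and from 8.58 to 8.79.

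Both microsystem arrays numbered 3, 1 control and 1 treated, stood apart from arrays 1 and 2 of their groups in the same genes. Across the 13199 genes, the deviation of control array 3 from its group mean correlated with that of treated array 3 at r = 0.60, a description across genes, which are not independent replicates. In both, 73 genes lay more than 0.5 above the mean of arrays 1 and 2 and 140 more than 0.5 below it. The highest were TMEM156, the YAP target ANKRD1, the matrix genes THBS1 (thrombospondin) and VCAN (versican), UBD, SERPINE2, CDK11B and the actin-binding gene TAGLN. The lowest were ETNPPL, the small heat shock protein gene CRYAB, the betaine transporter gene SLC6A12, SLC4A11, OR2B6, CAB39L, the histone gene H1-6, uncertain because of its family, and ELF5. CRYAB read 8.11, 6.19 and 5.04 in control arrays 1, 2 and 3 and 8.21, 8.69 and 5.53 in treated arrays 1, 2 and 3. The lowest value of each group was that of its array 3, and the groups overlapped. ANKRD1 read 6.40, 5.69 and 8.07 in control and 7.48, 7.96 and 9.16 in treated arrays. Its treated minus control difference of 1.48 was the largest of all genes that did not pass (adjusted p = 0.0720), and without both arrays numbered 3 it was 1.68 (adjusted p = 0.00219). Of the 213 genes that deviated by over 0.5 in both arrays, 11 passed the test of treatment, and 27 passed without these arrays. Over all 13199 genes tested the numbers were 1196 and 677. The 213 genes were chosen for the spread that these arrays add within groups. Their counts with and without the arrays thus depend on that choice and are no result about treatment. The cause of the shared deviation was not tested.

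**Figure D1:**
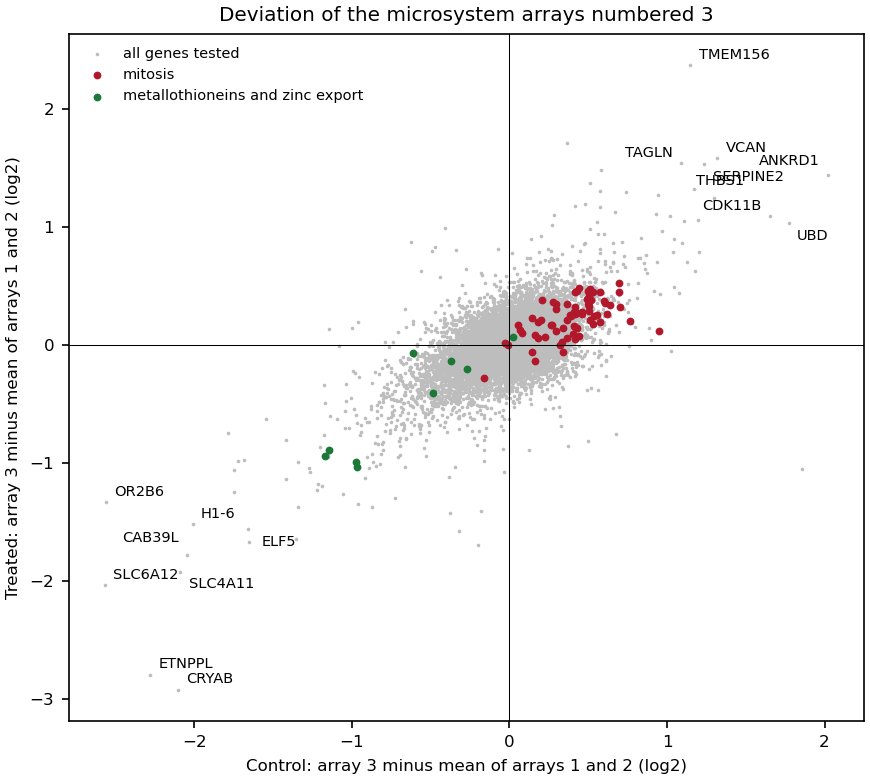
Deviation of array 3 from the mean of arrays 1 and 2 for control (horizontal axis) and treated microsystem samples (vertical axis), in log2, with a grey point per gene tested, mitosis genes in red and metallothionein and zinc export genes in green; the 16 named genes had the highest or lowest mean of both deviations. Points run from lower left to upper right (r = 0.60), mitosis genes lie mostly above 0 on both axes (medians 0.42 and 0.25) and metallothioneins mostly below (medians -0.61 and -0.40).

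Treatment changed 1196 of the 13199 genes tested (9.06%). Genes of cell division, p53 targets, SMAD feedback genes and matrix genes were among those that rose, and genes of secreted liver proteins and of intermediary metabolism among those that fell. In all, 843 genes rose (6.39%) and 353 fell (2.67%), with a median absolute difference of 0.45 among those that passed. At least 1.5-fold changes were seen in 310 genes (2.35%), of which 260 rose and 50 fell. At least 2-fold changes were seen in 28 genes that rose and 5 that fell. The share of rises was 70.5%, and 81.6% with array medians set equal. Leaving out both arrays numbered 3 left 677 genes that passed, 587 of them among the 1196. A fit of only the 6 microsystem arrays, without the Petri arrays in the estimate of the spread, left 446, 436 of them among the 1196. Without control array 2 the number was 605 (508 rose) and without treated array 2 it was 460 (388 rose), and the number that fell was 547 without control array 1, 97 without control array 2, 231 without control array 3 and 72 without treated array 2.

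**Figure D2:**
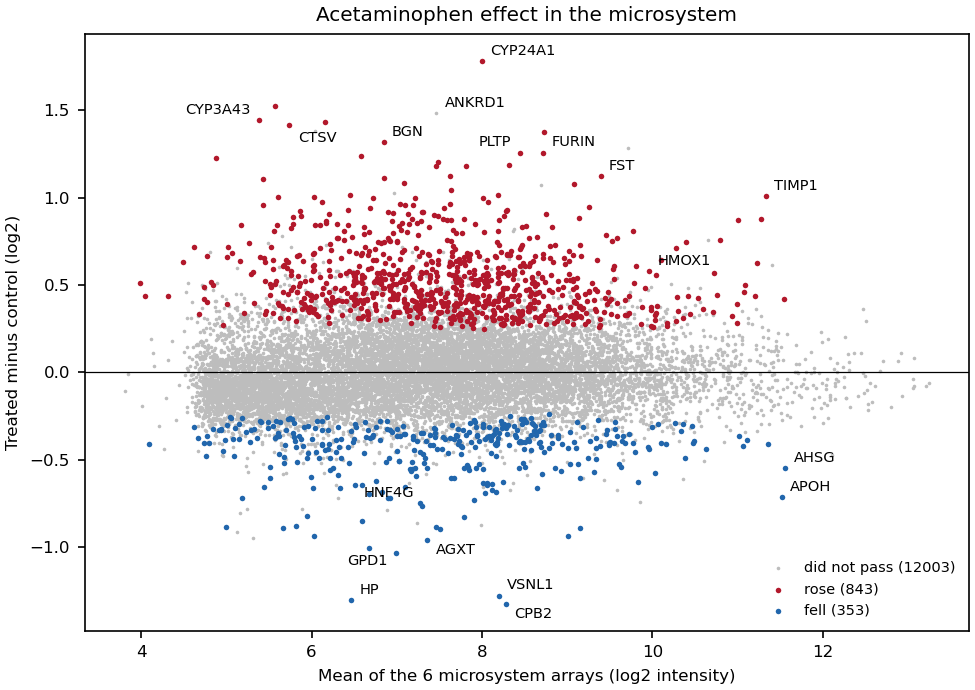
Treated minus control difference in the microsystem (log2) against the mean log2 intensity of the 6 arrays, a point per gene, red for the 843 genes that rose, blue for the 353 that fell and grey for the 12003 that did not pass. Rises reach further from 0 than falls, to 1.78 for CYP24A1 against -1.32 for CPB2.

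Mitosis genes rose as a group: of 71 listed, 70 were tested and 45 rose (64.3%, against 6.39% of all genes tested), all 70 differences were above 0, and the median was 0.59 against -0.01 over all genes. Among spindle and chromosome genes 15 of 20 rose, among kinetochore and checkpoint genes 10 of 15, among cytokinesis genes 5 of 8, among kinases and cyclins 9 of 17 and among regulators 6 of 10. In a mixed cell sample, more cells in mitosis and more RNA per cell cannot be told apart. CKAP2L, a spindle protein of dividing cells, read 6.71, 6.84 and 7.07 in control arrays 1, 2 and 3 and 7.92, 7.95 and 8.29 in treated arrays 1, 2 and 3. The groups were apart by more than the range of either, and the rise was 1.18 ± 0.11 (2.27-fold, adjusted p = 8.60e-05). HJURP, the chaperone that loads the centromere histone CENP-A, is outside the list and rose by 1.19 ± 0.11 (adjusted p = 8.60e-05). CENPI, a kinetochore protein gene, read 6.96, 7.03 and 7.34 in control and 8.12, 8.23 and 8.11 in treated arrays, and rose by 1.04 ± 0.09 (adjusted p = 8.60e-05). The kinesin gene KIF18A, which dampens chromosome movement, read 5.78, 6.38 and 6.52 in control and 7.10, 7.03 and 7.55 in treated arrays, and the groups did not overlap (adjusted p = 0.00374). The abscission gene CEP55 read 7.59, 7.69 and 7.48 in control and 8.69, 8.62 and 8.38 in treated arrays (a rise of 0.98 ± 0.10, adjusted p = 0.000185). E2F7, an E2F that represses cell cycle genes and is itself a p53 target, read 6.83, 7.18 and 7.17 in control and 8.26, 8.20 and 8.09 in treated arrays and rose by 1.12 ± 0.10 (adjusted p = 8.60e-05). The phosphatase gene CDC25B, which activates CDK1, rose by 0.62 ± 0.07 (adjusted p = 0.000328), while AURKA, PLK1 and CCNB1 differed by 0.29, 0.27 and 0.47 and did not pass. Without both arrays numbered 3, in which the list lay above the other arrays by medians of 0.42 in control and 0.25 in treated cells, 47 members rose, 44 of them among the 45. Without treated array 3 alone 27 rose, and 26 of the 45 passed without each single array. With only the 6 microsystem arrays in the fit, 18 members rose, the lowest count of any alternative.

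Promoters of mitosis genes often carry a cell cycle homology region (CHR), which MuvB complexes bind, and a CCAAT box, bound by NF-Y, while replication genes carry E2F sites. The RefSeq promoter table (GRCh38.p14, 250 bases before to 50 after a gene's first listed start) held 10404 of the genes tested. The CHR was searched as TTTGAA or TTCGAA on both strands, and 39 of 58 mitosis genes with a promoter held it (67.2%), against 10.9% of all genes tested. It was found in 24 of 36 mitosis genes that rose (66.7%) and in 15 of 22 that did not pass (68.2%). Both a CHR and a CCAAT (either strand) were found in 30 of the 58 (51.7%), against 4.52% of genes tested. Of 12 replication genes that rose, 7 held an E2F motif (TTTCGCGC, TTTGGCGC, TTTCCCGC or TTTGCCGC, either strand) and 0 held a CHR, while 13 of 30 replication genes that did not pass (43.3%) and 5.11% of all genes tested held the E2F motif. A match describes letters in this window and is no evidence of binding. The stretches below are shown because they belong to 3 mitosis genes and 1 replication gene among those with rises given here. They are written 5′ to 3′ on the gene's strand, with CHR, CCAAT and E2F letters in capitals (TTCAAA is a CHR on the other strand), at chr2:112764610-112764699 (minus strand, CKAP2L), chr11:28108157-28108246 (minus strand, KIF18A), chr10:93496492-93496607 (plus strand, CEP55) and chr11:65261872-65261961 (plus strand, POLA2).
CKAP2L: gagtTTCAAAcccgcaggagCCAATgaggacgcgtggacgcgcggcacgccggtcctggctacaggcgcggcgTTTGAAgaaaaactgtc
KIF18A: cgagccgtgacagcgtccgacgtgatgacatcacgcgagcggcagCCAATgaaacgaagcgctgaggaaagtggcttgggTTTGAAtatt
CEP55: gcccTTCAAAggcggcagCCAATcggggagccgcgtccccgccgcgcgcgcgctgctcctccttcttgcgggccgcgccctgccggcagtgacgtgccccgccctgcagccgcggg
POLA2: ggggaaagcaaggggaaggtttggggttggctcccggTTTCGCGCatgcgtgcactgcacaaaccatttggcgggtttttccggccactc
Upstream of their starts, CKAP2L held a CHR at positions -17 to -12, KIF18A at -10 to -5, and POLA2 an E2F motif at -53 to -46.

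Of 49 DNA replication genes listed, 47 were tested and 14 rose (29.8%), with a median of 0.33 and 44 differences above 0. They were 6 of 18 origin and helicase genes, 6 of 21 polymerase and fork genes and 2 of 8 nucleotide supply genes. POLA2, a subunit of the polymerase that primes replication, read 7.06, 7.40 and 7.55 in control and 7.95, 8.02 and 8.14 in treated arrays and rose by 0.70 ± 0.12 (adjusted p = 0.00329). GINS4, of the replicative helicase, read 6.24, 6.59 and 6.99 in control and 7.54, 7.38 and 7.41 in treated arrays and rose by 0.84 ± 0.15 (adjusted p = 0.00602). In both genes all treated arrays lay above all control arrays. The helicase subunits MCM2 to MCM7 differed by 0.11 to 0.33, and none passed. The count was 9 without control array 1, control array 2 or treated array 1, 7 without treated array 2 and 8 without treated array 3. It was 13 without both arrays numbered 3, in which the list lay above the other arrays by medians of 0.35 and 0.16. Of the 47 genes, 7 passed without each single array.

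Genes of homologous recombination and checkpoint repair, which mend broken or stalled forks, rose in 9 of 20 tested (45.0%, 25 listed), with all 20 differences above 0 and a median of 0.46. BRCA1 read 6.83, 7.18 and 7.45 in control and 7.89, 8.04 and 8.15 in treated arrays, a rise of 0.87 ± 0.14 (adjusted p = 0.00284). EME1, a subunit of a nuclease that cuts branched DNA, rose by 0.91 ± 0.14 (adjusted p = 0.00244). Outside this list, the base excision glycosylase gene NEIL3 read 6.05, 5.87 and 5.96 in control and 7.26, 7.32 and 7.02 in treated arrays. Its rise of 1.24 ± 0.10 (2.36-fold, adjusted p = 4.94e-05) exceeded the range within either group. Without both arrays numbered 3, in which the repair list lay above the other arrays by medians of 0.36 and 0.23, the count was also 9, 7 of them among the first 9.

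Targets of p53 rose in 15 of 32 tested (46.9%, 37 listed), with a median of 0.29 and 30 differences above 0. By role, 7 of 13 arrest and feedback genes, 4 of 12 death genes and 4 of 7 repair genes rose. TP53I3, a quinone oxidoreductase gene, read 8.65, 8.51 and 8.45 in control and 9.59, 9.50 and 9.75 in treated arrays. POLH, the translesion polymerase that passes ultraviolet damage, read 7.84, 7.85 and 7.78 in control and 8.64, 8.80 and 8.79 in treated arrays. The damage sensor gene DDB2 read 8.55, 8.51 and 8.43 in control and 9.26, 9.30 and 9.11 in treated arrays. For each of these 3 genes the gap between the groups was larger than the range within either. The rises were 1.08 ± 0.10 for TP53I3, 0.92 ± 0.08 for POLH (both adjusted p = 8.60e-05) and 0.73 ± 0.08 for DDB2 (adjusted p = 0.000229). CDKN1A, which encodes the inhibitor p21, rose by 0.51 ± 0.10 (adjusted p = 0.00968) and lost the call without treated array 2 (adjusted p = 0.0526). The death genes BBC3 and BAX differed by -0.15 and 0.23, and the cytokine gene GDF15, the nearest of the others at 0.76 ± 0.23, had an adjusted p of 0.0530. The list rested on single arrays: 6 members rose without control array 2, 9 without control array 3, 4 without treated array 2 and 8 without treated array 3, and 6 without both arrays numbered 3. TP53I3, POLH, DDB2 and the ribonucleotide reductase gene RRM2B (0.51 ± 0.11, adjusted p = 0.0123) were the 4 that passed without each single array.

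Genes of transforming growth factor beta (TGF-beta) and bone morphogenetic protein (BMP) signalling rose in 9 of 21 tested (42.9%, 24 listed), with a median of 0.33 and 18 differences above 0. These ligands act through serine kinase receptors and SMAD factors, and SMADs in turn raise inhibitors of the same pathway. Of ligands and their antagonists, the TGF-beta gene TGFB1 read 9.28, 8.99 and 8.82 in control and 9.59, 9.81 and 9.63 in treated arrays and rose by 0.64 ± 0.11 (adjusted p = 0.00349). The activin trap follistatin (FST) read 9.20, 8.62 and 8.67 in control and 9.68, 10.41 and 9.78 in treated arrays and rose by 1.12 ± 0.17 (2.18-fold, adjusted p = 0.00218). Treated array 2 was the highest for both genes, and neither group pair overlapped. The receptor gene TGFBR1 rose by 0.39, and lost the call without treated array 2 or treated array 3 (adjusted p up to 0.0546). Of intracellular feedback genes, the inhibitor SMAD7 read 6.96, 6.97 and 7.24 in control and 7.58, 7.71 and 7.60 in treated arrays and rose by 0.57 ± 0.10 (adjusted p = 0.00592). SKIL, a repressor of SMAD targets, rose by 0.48 and lost the call without control array 2, control array 3 or treated array 2 (adjusted p up to 0.110). Of targets, the matrix protein gene TGFBI rose by 0.87 ± 0.14 (adjusted p = 0.00279). HAMP, which encodes the iron hormone hepcidin and is induced by BMP6 in the liver, read 5.69, 5.58 and 5.62 in control and 6.67, 6.62 and 6.53 in treated arrays. It rose by 0.98 ± 0.17 (adjusted p = 0.00376), with nearly equal values within each group. ID3 and ID2, inhibitors of helix-loop-helix factors, rose by 0.47 and 0.43, the latter not without treated array 2 (adjusted p = 0.0636), while ID1 (0.33) and the ligand genes BMP2 (-0.12), BMP4 (0.25) and BMP6 (0.08) did not pass. FURIN, the protease that cuts precursors of TGF-beta and many other secreted proteins, is outside the list and read 8.67, 7.83 and 7.77 in control and 9.24, 9.62 and 9.18 in treated arrays, a rise of 1.26 ± 0.20 (2.39-fold, adjusted p = 0.00261). When both arrays numbered 3 were left out, 8 of the list rose, 7 of them among the 9.

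Extracellular matrix genes rose in 8 of 35 tested (22.9%, 47 listed) and 1 fell, with a median of 0.08, and the changes lay mostly among enzymes and their inhibitors. Of 15 crosslinking and proteolysis genes 6 rose, and of 20 matrix protein genes 2 rose. TIMP1, an inhibitor of matrix metalloproteinases, read 10.97, 10.61 and 10.90 in control and 11.64, 11.73 and 12.13 in treated arrays and rose by 1.01 ± 0.13 (adjusted p = 0.000668). LOXL4, a lysyl oxidase that crosslinks collagen, read 7.28, 6.78 and 7.61 in control and 8.06, 8.72 and 8.41 in treated arrays and rose by 1.18 ± 0.18 (adjusted p = 0.00207). SULF2, which removes sulfates from heparan chains, rose by 1.11 ± 0.13 (adjusted p = 0.000355) from a control level near the 40th percentile. LOX, another lysyl oxidase gene, fell by 0.94 ± 0.26, reading 9.09, 9.42 and 9.93 in control and 8.13, 8.21 and 9.30 in treated arrays. The groups overlapped, since treated array 3 lay above control array 1, and the call was lost without control array 2, control array 3, treated array 1 or treated array 2 (adjusted p up to 0.155). Without both arrays numbered 3 the difference was -1.09 (adjusted p = 0.00101). The proteoglycan gene BGN rose from 6.15, 5.90 and 6.52 to 7.40, 7.86 and 7.25 (1.32 ± 0.16, adjusted p = 0.000473), and HSPG2, which encodes perlecan, by 0.56 ± 0.11 (adjusted p = 0.00678). Collagen genes differed by -0.17 to 0.11 and did not pass. Of 25 actin and YAP target genes 4 rose, of which the smooth muscle actin gene ACTA2 and the vinculin gene VCL passed without each single array, and 2 members rose without control array 2. The YAP targets CCN1 and CCN2 differed by 0.52 and -0.00047.

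**Figure D3:**
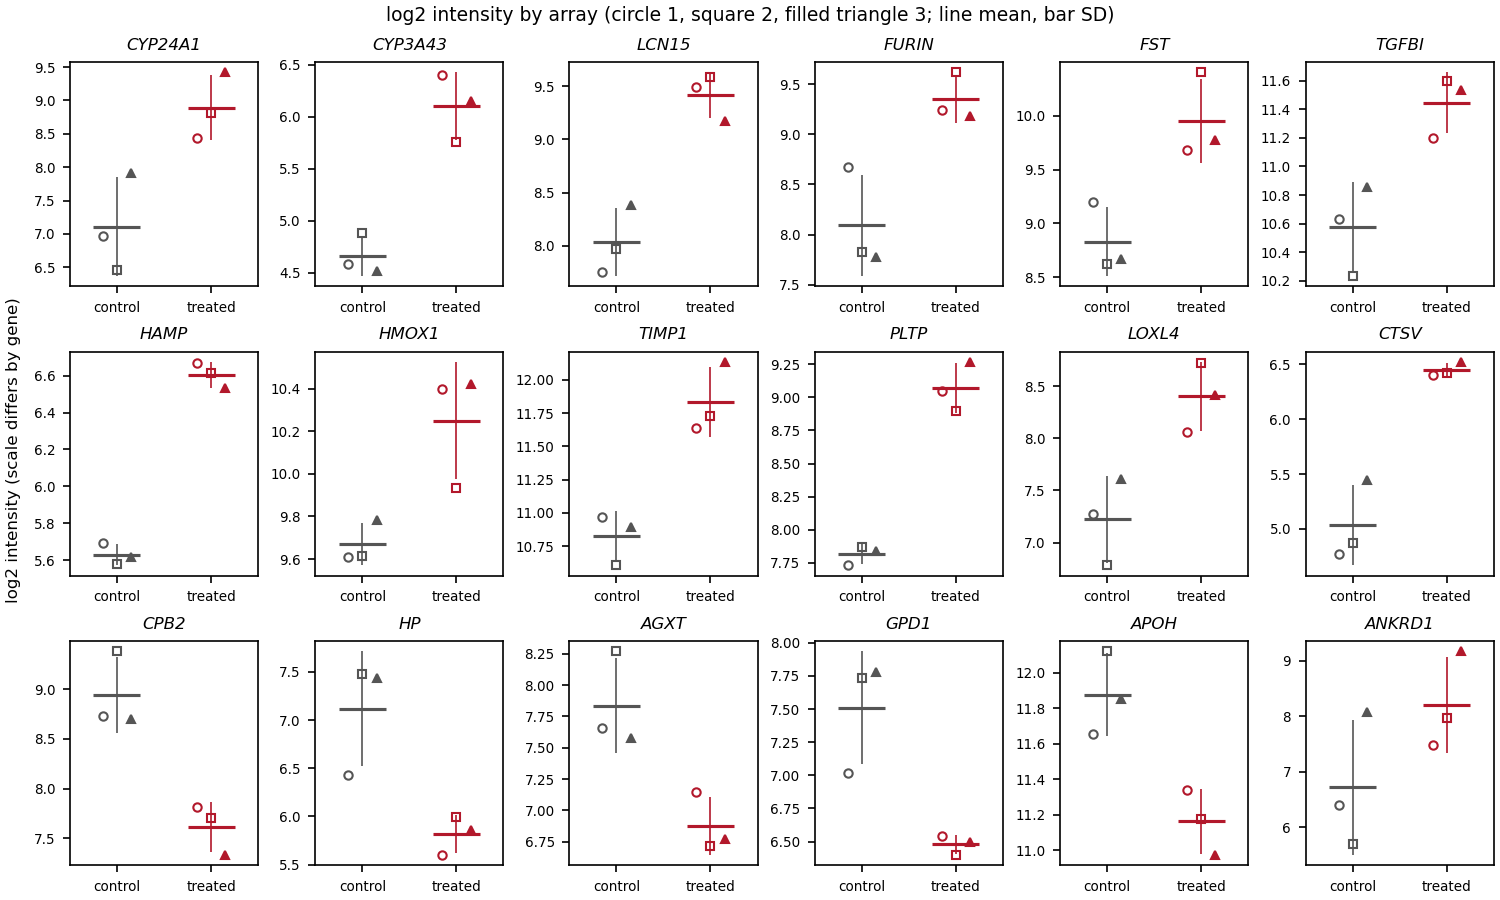
log2 intensity of 18 genes in each microsystem array, with a vertical scale per gene, control in grey and treated in red, open circles, open squares and filled triangles for arrays 1, 2 and 3, horizontal lines for group means and bars for the SD. HAMP and PLTP are tight within groups, while in ANKRD1 both arrays numbered 3 are the highest of their group and the groups overlap.

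Among cytochrome P450 genes of drug metabolism, 6 of 17 tested rose (35.3%, 26 listed), with a median of 0.14. CYP3A43 and CYP3A4 passed the intensity filter only through the treated microsystem arrays, where they are high, and of the 15 other members 4 rose. CYP3A43 read 4.58, 4.88 and 4.52 in control and 6.40, 5.76 and 6.15 in treated arrays, a difference of 1.44 ± 0.15 (adjusted p = 0.000175, and 0.000176 with no filter). Its control level lay at the 37.5th percentile, so the size of the difference is uncertain. CYP4F3, an omega-hydroxylase of leukotrienes and fatty acids, read 6.80, 6.79 and 6.94 in control and 7.65, 7.81 and 7.81 in treated arrays and rose by 0.92 ± 0.09 (adjusted p = 0.000126). CYP3A4 rose by 0.66 ± 0.19 (adjusted p = 0.0433, and 0.0534 with no filter) and lost the call without control array 2, control array 3, treated array 1 or treated array 2 (adjusted p up to 0.163). CYP4F12 rose by 0.63 and lost the call without treated array 2 (adjusted p = 0.0599), and CYP4F2 and CYP2S1 rose by 0.56 and 0.39 and lost it without at least 4 of the 6 arrays (adjusted p up to 0.117 and 0.114). Genes of the CYP3A and CYP4F families are uncertain because of near-identical relatives. CYP2E1, the enzyme best known for activating acetaminophen, and CYP1A1 differed by -0.02 and 0.10 and did not pass. The count was 3 without control array 2 or control array 3, 2 without treated array 2, and 4 without both arrays numbered 3. Of 19 conjugation enzymes, GSTM3 alone rose (0.51), and not without control array 3, treated array 1 or treated array 2 (adjusted p up to 0.0842).

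CYP24A1, the 24-hydroxylase that inactivates vitamin D and is induced by the vitamin D receptor, had the largest rise of all genes tested. It read 6.97, 6.45 and 7.91 in control and 8.44, 8.82 and 9.42 in treated arrays, highest in array 3 of each group. The groups did not overlap, which the rule for the largest rises required. The difference was 1.78 ± 0.34 (3.44-fold, adjusted p = 0.00670), and 1.92 without both arrays numbered 3 (adjusted p = 0.00312). The receptor gene VDR was under the intensity filter, at the 34.9th percentile in control and the 34.0th in treated cells, and was not tested. Of 7 vitamin D genes tested, CYP3A4 was the other that rose, and 1 of the 7 rose without control array 2, control array 3, treated array 1 or treated array 2. CYP3A4 passed the intensity filter only through the treated microsystem arrays. Of the 6 other members 1 rose, against 6.39% of all genes tested. The activating enzymes CYP2R1, CYP27A1 and CYP27B1 differed by 0.20, -0.14 and -0.31 and did not pass.

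Lysosomal genes rose in 12 of 33 tested (36.4%, 37 listed), with a median of 0.18 and 29 differences above 0. The protease gene CTSV (cathepsin V) read 4.77, 4.87 and 5.45 in control and 6.40, 6.42 and 6.52 in treated arrays, and the treated values differed by less than the control values did (a rise of 1.42 ± 0.14, adjusted p = 0.000152). Its control level lay at the 42.4th percentile, near the intensity filter, so the size of the rise is uncertain. The protease gene LGMN (legumain) read 8.58, 8.67 and 8.77 in control and 9.40, 9.33 and 9.37 in treated arrays and rose by 0.69 ± 0.08 (1.62-fold, adjusted p = 0.000302). SMPD1, the acid sphingomyelinase that splits sphingomyelin to ceramide, rose by 0.63 ± 0.10 (adjusted p = 0.00327). The sialidase gene NEU1 rose by 0.63 ± 0.13 (adjusted p = 0.0130), but not without treated array 2 (adjusted p = 0.0631). CTSV, LGMN, SMPD1, CTSB and SCARB2 were the 5 that passed without each single array. The count was 7 without control array 3, 6 without treated array 2 and 7 without both arrays numbered 3.

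Several genes of secreted liver proteins fell. Of 17 apolipoprotein and lipoprotein genes tested (24 listed), 7 fell (41.2%, against 2.67% of all genes tested) and 1 rose, with a median of -0.08. APOH, a phospholipid-binding plasma protein gene, read 11.66, 12.12 and 11.85 in control and 11.34, 11.18 and 10.97 in treated arrays and fell by 0.71 ± 0.13 (adjusted p = 0.00494). It was the 1 fall of this list that held without each single array. APOC3, which slows triglyceride clearance, read 9.69, 10.48 and 10.28 in control and 9.80, 9.44 and 9.34 in treated arrays and fell by 0.63 ± 0.17 (adjusted p = 0.0368). Treated array 1 lay above control array 1, and the call was lost without control array 2, control array 3, treated array 2 or treated array 3 (adjusted p up to 0.138), while another probe set of this gene differed by -1.08. MTTP, which loads triglycerides onto apolipoprotein B, fell by 0.54 ± 0.13 (adjusted p = 0.0254), but not without control array 2 or treated array 3 (adjusted p up to 0.104). APOA5, APOF, ANGPTL8 and APOA4 fell by 0.55, 0.49, 0.47 and 0.28 and each lost the call without at least 3 of the 6 arrays (adjusted p up to 0.157). APOB, APOA1 and APOE differed by -0.06, -0.13 and 0.01. The phospholipid transfer gene PLTP moved the other way, from 7.73, 7.87 and 7.84 to 9.05, 8.90 and 9.27 (1.26 ± 0.11, 2.39-fold, adjusted p = 7.69e-05). The count of falls was 1 without control array 2, 2 without treated array 2 or treated array 3 and 4 without both arrays numbered 3.

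Of 23 coagulation genes tested 2 fell, of 21 complement genes 2 rose and 2 fell, and of 20 acute phase genes 1 rose (HAMP) and 2 fell. Their medians were -0.12, -0.06 and -0.02. Among all 13199 genes tested, 6.39% rose and 2.67% fell. In complement, C8G and CFI fell by 0.51 and 0.32, and CFB and CD59 rose by 0.36 and 0.37. Each of these 4 lost the call without at least 2 of the 6 arrays (adjusted p up to 0.136). CPB2, whose product slows clot lysis, read 8.73, 9.38 and 8.70 in control and 7.81, 7.71 and 7.33 in treated arrays and was 2.50-fold lower after treatment (difference -1.32 ± 0.17, adjusted p = 0.000778). With PROS1 (-0.44), lost without control array 2 or treated array 2 (adjusted p up to 0.0667), it made up the coagulation falls. None of 10 clotting factor genes passed in limma (3 at an unadjusted p under 0.05, against 3408 of the 13199 genes tested). The fetuin gene AHSG read 11.82, 11.93 and 11.75 in control and 11.28, 11.33 and 11.24 in treated arrays and fell by 0.55 ± 0.07 (adjusted p = 0.000778). Haptoglobin (HP), which binds free haemoglobin, read 6.43, 7.48 and 7.44 in control and 5.60, 5.99 and 5.86 in treated arrays. It fell by 1.30 ± 0.34 (adjusted p = 0.0323), and the call was lost without any array but control array 1 (adjusted p up to 0.118) and without both arrays numbered 3 (adjusted p = 0.146). HNF4G, a nuclear receptor of hepatocytes, read 6.79, 6.91 and 6.81 in control and 6.18, 6.26 and 6.14 in treated arrays and fell by 0.64 ± 0.07 (adjusted p = 0.000355), the 1 change among 15 liver-enriched factors. The glucocorticoid receptor gene NR3C1 rose by 0.54 ± 0.10 (adjusted p = 0.00670). Without both arrays numbered 3 its adjusted p was 0.0504.

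Of metabolic enzymes, GPD1, which links glycolysis to glycerol phosphate, read 7.02, 7.73 and 7.78 in control and 6.54, 6.40 and 6.49 in treated arrays and was 2.04-fold lower (difference -1.03 ± 0.17, adjusted p = 0.00371). TKFC, which phosphorylates glyceraldehyde from fructose, read 9.22, 9.80 and 9.77 in control and 8.76, 8.55 and 8.80 in treated arrays and fell by 0.89 ± 0.14 (adjusted p = 0.00277). These were the 2 falls among 8 genes of fructose and glycerol phosphate metabolism. AGXT, which turns glyoxylate to glycine, read 7.66, 8.27 and 7.58 in control and 7.14, 6.72 and 6.77 in treated arrays and fell by 0.96 ± 0.19 (adjusted p = 0.00817). Of 22 urea cycle and amino acid genes 4 fell (18.2%) and 1 rose. HPD, of tyrosine breakdown, fell by 0.42 ± 0.08 (adjusted p = 0.00817), and the methionine adenosyltransferase gene MAT1A by 0.58 ± 0.14 (adjusted p = 0.0223), the latter not without control array 2, control array 3 or treated array 2 (adjusted p up to 0.102). The falls numbered 2 without control array 2, control array 3 or treated array 2. In fatty acid metabolism the acyl-CoA synthetase gene ACSL1 rose by 0.75 ± 0.10 (adjusted p = 0.000700) and the peroxisomal thiolase gene ACAA1 fell by 0.52 ± 0.10 (adjusted p = 0.00602). Cholesterol synthesis genes lay above 0 in 15 of 15, with a median of 0.12, and none passed in limma (4 at an unadjusted p under 0.05). Of all 13199 genes tested, 6418 lay above 0 and 3408 had an unadjusted p under 0.05.

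Other large changes, apart from that of ODAM, were outside the lists. The lipocalin gene LCN15 read 7.75, 7.98 and 8.38 in control and 9.49, 9.58 and 9.17 in treated arrays and rose by 1.38 ± 0.16 (adjusted p = 0.000355). UCA1, a long noncoding RNA gene, read 5.64, 4.50 and 4.29 in control and 6.16, 6.95 and 5.88 in treated arrays and rose by 1.52 ± 0.33 (adjusted p = 0.0136), but not without control array 2 or treated array 2 (adjusted p up to 0.0643). The control level of UCA1 lay at the 39.5th percentile, so the size of its rise is uncertain. The groups did not overlap in either gene, which the rule that named them required. DGKA, a diacylglycerol kinase gene, rose by 1.20 ± 0.13 (adjusted p = 0.000229) and the phosphatidic acid lipase gene LIPH by 1.22 ± 0.19 (adjusted p = 0.00241), the latter from the 32.3rd percentile, having passed the filter only through the treated arrays. Of falls, the neuronal calcium sensor gene VSNL1 read 8.03, 9.06 and 9.41 in control and 7.47, 7.18 and 8.02 in treated arrays. Its fall of 1.28 ± 0.27 (adjusted p = 0.0132) was lost without control array 2 or treated array 2 (adjusted p up to 0.0641). The secreted protein gene ODAM fell by 1.005 (adjusted p = 0.000996), reading 7.16, 7.42 and 6.94 in control and 6.23, 6.11 and 6.17 in treated arrays. ODAM belongs to the list of Wnt and beta-catenin targets, where 2 of 18 tested fell (11.1%, against 2.67% of all genes tested). PUS10, a pseudouridine synthase gene, fell by 0.89 ± 0.12 (adjusted p = 0.000934), and SLC17A2, an anion transporter gene, by 0.88 ± 0.11 (adjusted p = 0.000603).

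Of 28 glutathione and NRF2 target genes, 3 rose (10.7%) and 1 fell, with a median of 0.07. At an unadjusted p under 0.05 the number was 12 of 28, against 3408 of the 13199 genes tested. Heme oxygenase (HMOX1), which degrades heme, read 9.61, 9.62 and 9.79 in control and 10.40, 9.93 and 10.42 in treated arrays and rose by 0.58 ± 0.12 (adjusted p = 0.00860). The plasma glutathione peroxidase gene GPX3 rose by 0.37 ± 0.07 (adjusted p = 0.00873). The glutathione synthesis gene GCLC rose by 0.29 and lost the call without any array but control array 3 (adjusted p up to 0.119), while GCLM (0.37) and NQO1 (-0.05) did not pass. Metallothionein and zinc export genes had a median of -0.19, and none of 9 passed in limma (1 at an unadjusted p under 0.05). MT1X, uncertain because of its near-identical relatives, read 10.82, 11.15 and 10.01 in control and 10.61, 10.15 and 9.39 in treated arrays, lowest in array 3 of each group. Of 19 heat shock genes DNAJB4 alone passed (0.41), and not without treated array 3 (adjusted p = 0.0549). None of 23 endoplasmic reticulum chaperone genes passed in limma (4 at an unadjusted p under 0.05). Of 29 genes of the ATF4 response, the tRNA exporter gene XPOT fell by 0.53 ± 0.10 (adjusted p = 0.00602) and the serine-to-glycine enzyme gene SHMT2 by 0.49 ± 0.10 (adjusted p = 0.00773). Of 27 immediate early and ERK feedback genes 3 rose (11.1%), led by JUNB at 0.73 ± 0.11 (adjusted p = 0.00140), and 1 rose without treated array 2 or without both arrays numbered 3. Ribosomal protein genes lay below 0 in 34 of 35, with a median of -0.17, and ribosome biogenesis genes had a median of -0.22. In each of these lists 3 genes fell. With array medians set equal, 1 ribosomal protein gene and 0 biogenesis genes fell. Without control array 2 or treated array 2 the counts were 0 in both lists. Without control array 3 or treated array 1 the ribosomal count was 2 and the biogenesis count 0, without treated array 3 they were 1 and 4, without both arrays numbered 3 they were 1 and 0, and without control array 1 the biogenesis count was 10.

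**Figure D4:**
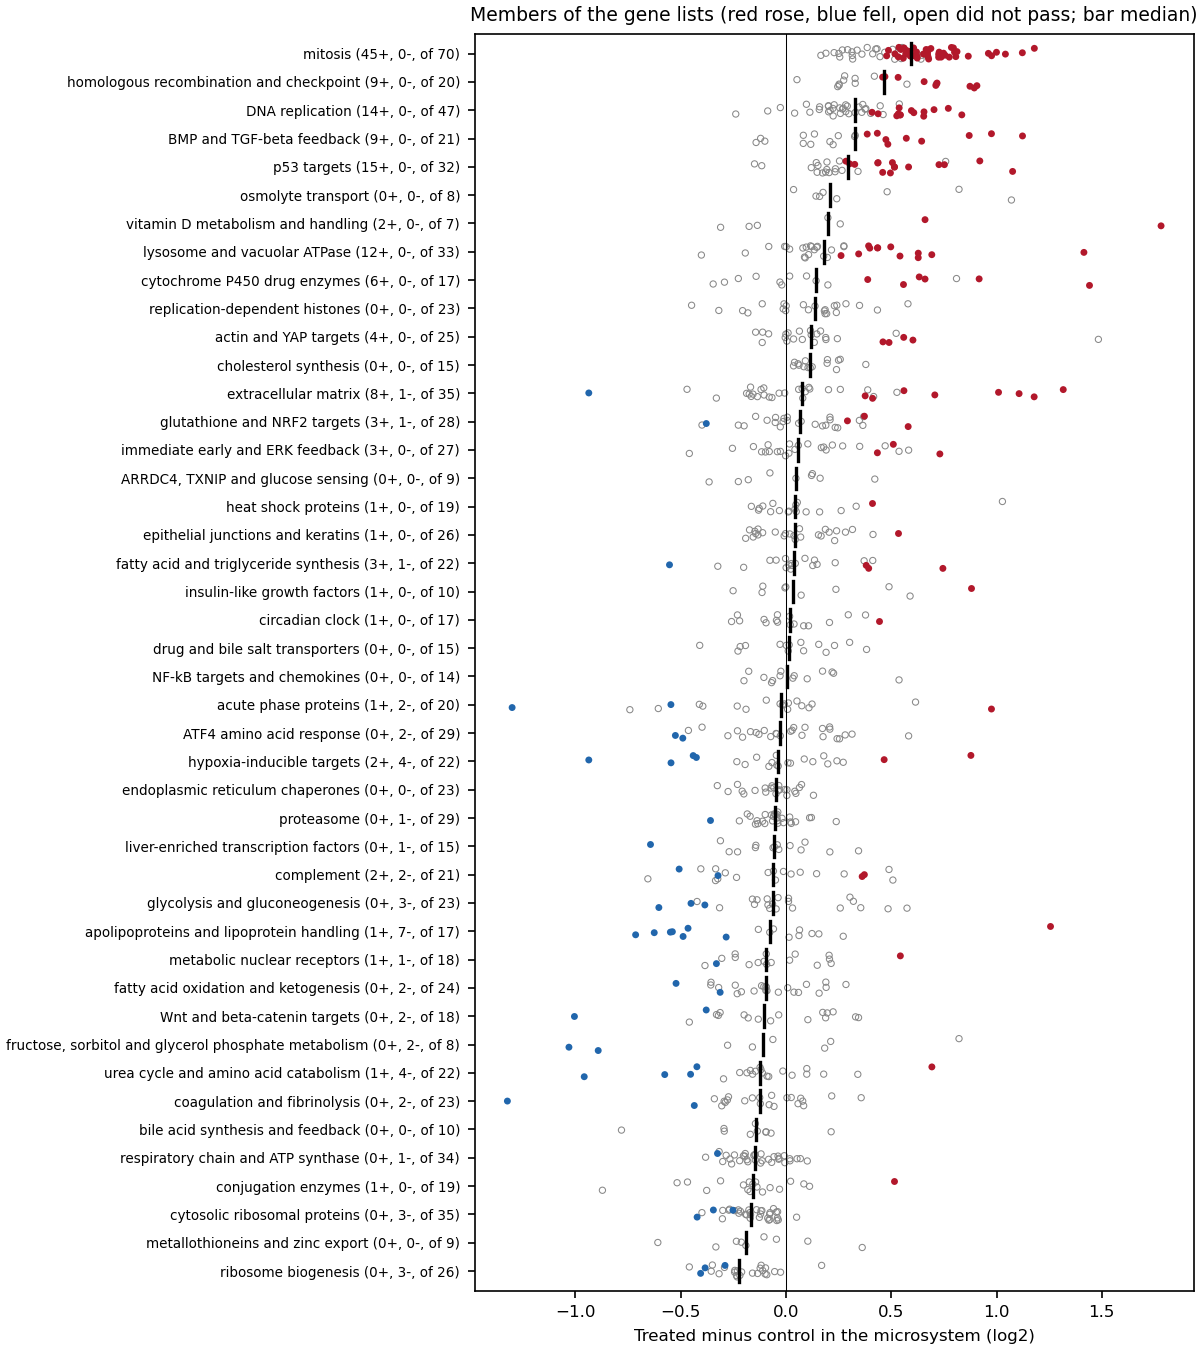
Treated minus control difference in the microsystem (log2) of every tested member of 44 gene lists, ordered by median (black bar), with red points for genes that rose, blue for genes that fell and open points for genes that did not pass; counts of rises, falls and genes tested stand beside each name. Mitosis has the highest median (0.59), followed by homologous recombination (0.46), and ribosome biogenesis the lowest (-0.22).

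The same treatment in Petri dishes changed 1367 genes (10.4%), of which 1106 rose (8.38%) and 261 fell (1.98%). The comparisons share no control arrays, but they come from 1 fit that gives a gene the same SE in both. Passing in both is therefore not the outcome of independent tests. In all, 552 genes passed in both, 551 in the same direction, which is 46.1% of the genes that passed in the microsystem and 40.3% of those that passed in Petri dishes. Mitosis genes had medians of 0.59 in both, while p53 targets (0.29 in the microsystem, 0.51 in Petri dishes) and replication genes (0.33 and 0.66) had lower medians in the microsystem. TGF-beta and BMP genes had a median of 0.33 in the microsystem and -0.02 in Petri dishes, where 1 rose and 1 fell. FST and HAMP differed by -0.12 and -0.07 in Petri dishes, so that their effects differed by 1.24 ± 0.24 and 1.04 ± 0.23 between the cultures, but these differences did not pass (adjusted p = 0.107 and 0.199). The same held for CYP3A43 (1.26 ± 0.21, adjusted p = 0.0590), IGFBP1 (1.51 ± 0.28, adjusted p = 0.0776) and JUNB (0.89 ± 0.15, adjusted p = 0.0590). HMOX1 was the 1 gene that passed in opposite directions, rising by 0.58 in the microsystem and falling by 0.43 in Petri dishes, with an adjusted p of 0.0565 for the difference. The difference of effects passed in 4 genes (0.0303%), which were CEL, LAPTM5, HSPA4L and AGTR1. CEL, the carboxyl ester lipase gene, read 5.82, 6.14 and 5.81 in control and 6.71, 6.95 and 6.40 in treated microsystem arrays. Its rise of 0.77 ± 0.13 there (adjusted p = 0.00384) was 1.65 ± 0.19 less than that in Petri dishes (adjusted p = 0.00762), and this held without each single microsystem array (adjusted p up to 0.0411).

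**Figure D5:**
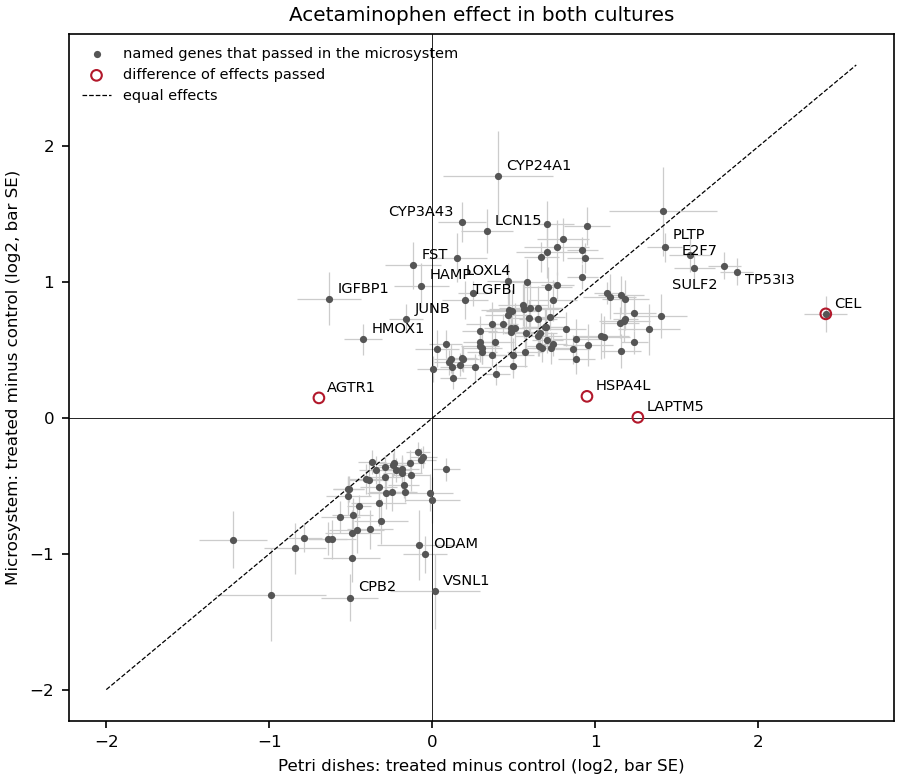
Treated minus control difference in the microsystem (vertical axis) against that in Petri dishes (horizontal axis), in log2 with SE bars, for the named genes that passed in the microsystem (filled) and the 4 genes whose difference of effects passed (red rings); the dashed line marks equal effects. FST and HAMP lie near 0 on the horizontal axis and well above 0 on the vertical axis, and HMOX1 lies in the upper left quadrant. CYP24A1 lies at 0.40 on the horizontal and 1.78 on the vertical axis. Its difference of effects did not pass in limma (adjusted p = 0.508).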

How the data were processed

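The 12 samples were hybridised to Affymetrix whole-transcript gene arrays. The deposited values are log2 intensities. Per the submitters' processing notes, the authors made them with RMA and Affymetrix Expression Console, with no version given in the sources used. RMA normalizes array distributions at the probe level, so a shift in total RNA cannot be seen, and the number of arrays limits the precision. Of 32321 probe sets, 19158 had 1 gene symbol in the platform annotation, 1388 several and 11775 none, and 637 genes had several probe sets. The 12 arrays were fitted together with a coefficient per group (limma 3.58.1 in R 4.3.3, lmFit and eBayes), and p-values were adjusted by Benjamini and Hochberg over 13199 genes. An exact permutation test of 3 against 3 cannot go below p = 0.1. On data simulated for the microsystem comparison over 13199 genes, 73% of 100 genes changed 1.5-fold and 95% of 100 changed 2-fold were called, with 3 unchanged genes called. Tables were read with the R package data.table (1.17.8), and figures were drawn with Python 3.11.15 and matplotlib 3.10.9.

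Named genes were the 15 largest rises and 15 largest falls without overlap, up to 4 called members per list or role with the largest difference (the smallest adjusted p where none passed), 10 genes of interest, the 8 highest and 8 lowest by deviation of arrays 3, and genes whose effects differed between cultures. Other genes were named after their values were seen, most of them as members that did not pass. The members and the 44 lists (1168 symbols, 953 tested) were chosen with earlier results of these data known. Genes of near-identical families are uncertain. Alternatives were other normalizations, filters, probe set rules, variance models, replicate blocks, a minimum fold and arrays left out.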

Additional observations from a re-analysis of the deposited data

Results flagged for a closer look

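The effect of treatment differed between the microsystem and Petri dishes in 4 genes, by the adjusted p of the difference of effects in limma (microsystem effect minus Petri effect, 3 arrays in each of the 4 groups). For the carboxyl ester lipase gene CEL the difference was -1.65 (adjusted p = 0.00762). For LAPTM5, a lysosomal membrane protein gene of blood cells, it was -1.25 (adjusted p = 0.0369), with effects of 0.0054 in the microsystem and 1.26 in Petri dishes. For the heat shock gene HSPA4L it was -0.79 (adjusted p = 0.0369), with effects of 0.16 and 0.95. For the angiotensin receptor gene AGTR1 it was 0.84 (adjusted p = 0.0369), with effects of 0.15 and -0.70. The AGTR1 difference did not pass without control array 2 or any single treated microsystem array (adjusted p up to 0.104), and those of LAPTM5 and HSPA4L not without control array 2, treated array 1 or treated array 2.

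Probe sets without a gene symbol here took no part in the comparison of genes. Fitted with every probe set by itself, 156 of 5539 such probe sets (2.82%) passed the test of treatment in the microsystem, of which 57 rose and 99 fell. In the same fit 773 of 13703 probe sets with 1 symbol passed (5.64%), of which 586 rose and 187 fell. The cause of these differences was not tested.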

How the results depend on the processing

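Of 1196 genes changed by treatment, 843 rose and 353 fell, 310 changed at least 1.5-fold, and 4 differed in effect between cultures. No gene among the 1196 changed direction under any alternative fit. Leaving out each microsystem array in turn gave 460 to 1440 changed genes, 388 to 893 rises, 72 to 547 falls, 231 to 397 changes of at least 1.5-fold and 1 to 13 differences between cultures. Without both arrays numbered 3 there were 677, with 519 rises, 158 falls and 11 differences. With only the 6 microsystem arrays there were 446, with 375 rises and 71 falls (84.1% rose). In that fit 18 mitosis genes and 7 replication genes rose. Rises numbered 6 in each of the lists of homologous recombination, TGF-beta and BMP, matrix and lysosomal genes. No ribosomal protein or ribosome biogenesis gene fell. Array weights gave 541 falls and 54 differences. Differences numbered 7 after quantile normalization and 10 with an intensity trend. A test against a minimum of 1.5-fold called 3. With array medians set equal, 81.6% of the changed genes rose, against 70.5%. The replicate block over all arrays gave 1581 changed genes and 18 differences. The replicate block within each culture gave 2109, with 1383 rises, 726 falls and 24 differences. Same-numbered microsystem arrays correlated in their deviations at 0.11, 0.07 and 0.60 for numbers 1, 2 and 3, and control 1 with treated 2 at 0.44. Deviations within a group sum to 0, so these correlations depend on each other and cannot decide whether the numbers pair the samples. No label says that they do, and the main fit did not pair them. The other counts over all genes stayed within 1.5 times. Of 144 named genes that passed, 72 did so under every alternative, and 62 lost the call without at least 1 single array. With 1 tumour line and 3 arrays a group, precision is limited by the number of arrays. Of the genes that rose, 6 passed the filter only through the treated microsystem arrays, and of those that fell, 3 only through the control ones. The causes of these changes with the setting were not tested.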

Other observations

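Small nucleolar and Cajal body RNAs, which guide chemical changes of ribosomal and spliceosomal RNA, were grouped after their values were seen. Of 144 tested, 16 fell and 2 rose (SCARNA9 by 0.89 and SNORA50A by 0.53), with a median of -0.23 and 109 differences below 0, against a median of -0.01 over all genes. Over all 13199 genes tested, 353 fell (2.67%) and 843 rose (6.39%), and 6418 differences were above 0. In Petri dishes 3 fell and 1 rose, with a median of -0.05, and the lowest adjusted p of a difference between the cultures was 0.285. The number that fell ranged from 8 without control array 2 to 31 with the replicate block within each culture, and was 9 without treated array 2 and 10 without both arrays numbered 3. Of 7 box C/D RNAs of the GAS5 host gene on the array, 6 were tested and all 6 fell (SNORD44, SNORD74, SNORD75, SNORD78, SNORD79 and SNORD81), with a median of -0.68, and 2 of them fell in Petri dishes, where the median was -0.34. These RNAs share 1 host gene and are not independent observations. SNORD75 lost the call without control array 2, and SNORD81 without control array 2 or treated array 2 (adjusted p up to 0.0623). SNORD79 had an adjusted p of 0.0501 without both arrays numbered 3. SNORD44 fell by 0.68 ± 0.10 (adjusted p = 0.00133), with no overlap between the groups.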
